A study of Mus musculus with 12 samples.

Results

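Metallothioneins and zinc transporters were followed on 12 arrays of mouse cortex at embryonic day 14, through 9 of the 18194 genes named on the array. The genes were the metallothioneins Mt1, Mt2 and Mt3, their activator Mtf1, and the zinc transporters Tmem163, Slc30a1, Slc30a3, Slc39a6 and Slc39a10. Every probe set annotated to one of them alone was used, which gave 19 probe sets. The genes were chosen from the measured KO against WT differences of this data set, in which Mt2 and Tmem163 stood out, and were joined by relatives of known function. Differences between KO and WT are therefore given as a description. The 4 groups, each of 3 arrays from separately numbered animals, were caudal cortex of AP2gamma knockout mice (KO), caudal cortex of wild-type mice (WT), rostral KO cortex and rostral WT cortex. AP2gamma is the transcription factor encoded by Tfap2c. The labels give neither the allele nor the promoter of any Cre, nor the strain or sex. In bulk tissue, fewer cells that contain a transcript and less transcript per cell cannot be told apart.

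Metallothioneins are small cysteine-rich proteins that bind zinc and copper and buffer the free metal in the cell. When free zinc rises, the zinc-finger factor Mtf1 binds metal response elements (MREs) and raises transcription of Mt1, Mt2 and of the exporter gene Slc30a1. Transporters of the Slc30 family move zinc out of the cytosol and those of the Slc39 family move it in. In the brain, Mt1 and Mt2 are mainly products of glia, meninges and vessels, Mt3 is enriched in the brain and does not respond to zinc in the same way, and Slc30a3 loads zinc into the synaptic vesicles of glutamatergic neurons. The promoter of human metallothionein IIA is a classical binding site of AP-2 proteins.

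The arrays were alike in signal, with medians from 5.21 to 5.22 and upper quartiles from 7.54 to 7.56 on the log2 scale. A probe set was tested when it exceeded the table's median, 5.21, on at least 3 arrays, which 15 of the 19 probe sets and all 9 genes did. The brightest tested probe set stood for a gene, and 11785 genes were tested in this way. Tfap2c read 7.44 to 7.86 in caudal KO, against 8.64 to 9.19 in caudal WT, and 8.09 to 8.63 in rostral KO, against 8.54 to 9.06 in rostral WT. Averaged over both regions it differed by -0.91 ± 0.14 (SE, limma adjusted p = 0.038), and signal remained in KO. Markers of dorsal cortex (6 of 6), radial glia (8 of 8) and young neurons (7 of 7) passed the filter. Caudal WT animal 6 stood apart, with a mean over 8 choroid plexus markers of 7.12, against 2.998 to 4.14 on the other caudal and 3.31 to 4.70 on the rostral arrays. Rostral KO animal 15 had the highest mean over 8 meningeal markers, 6.81, against 3.62 to 4.58 on the other 11 arrays. Xist was high on 2 arrays, caudal WT animal 6 and rostral WT animal 12, and on no KO array.

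The promoters of Mt2, Mt1 and Slc30a1 are shown because these 3 genes are the textbook targets of Mtf1 among the 9, and the KO differences given further on were large for the first, smaller for the second and near 0 for the third. The sequences are from RefSeq on GRCm38.p6, run 5′ to 3′ along the gene from 250 bases before to 50 bases after the annotated start, and all lie on the + strand. They are chr8:94172368-94172667 for Mt2, chr8:94178839-94179138 for Mt1 and chr1:191906531-191906830 for Slc30a1. Capitals mark the MRE core, searched on both strands as TGCACNC or TGCGCNC.
Mt2: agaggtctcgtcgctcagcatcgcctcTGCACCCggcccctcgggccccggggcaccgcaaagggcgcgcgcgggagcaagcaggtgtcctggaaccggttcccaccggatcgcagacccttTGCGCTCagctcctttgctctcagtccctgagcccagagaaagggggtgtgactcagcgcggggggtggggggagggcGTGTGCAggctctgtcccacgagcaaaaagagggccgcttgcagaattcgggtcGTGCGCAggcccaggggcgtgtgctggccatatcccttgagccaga
Mt1: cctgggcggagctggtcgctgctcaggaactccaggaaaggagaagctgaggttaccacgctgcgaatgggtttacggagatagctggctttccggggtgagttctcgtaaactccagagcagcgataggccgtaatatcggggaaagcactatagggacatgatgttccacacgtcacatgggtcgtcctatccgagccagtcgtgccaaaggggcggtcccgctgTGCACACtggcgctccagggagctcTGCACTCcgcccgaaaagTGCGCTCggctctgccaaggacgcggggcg
Slc30a1: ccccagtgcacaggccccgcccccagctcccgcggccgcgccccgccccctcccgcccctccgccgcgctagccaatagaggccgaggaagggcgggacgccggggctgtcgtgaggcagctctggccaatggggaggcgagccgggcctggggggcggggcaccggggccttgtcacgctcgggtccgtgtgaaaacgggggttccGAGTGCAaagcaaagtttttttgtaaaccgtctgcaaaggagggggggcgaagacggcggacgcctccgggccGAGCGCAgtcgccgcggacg

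The Mt2 window held 4 MRE cores, the Mt1 window 3 and the Slc30a1 window 2. Among all 32851 windows of the same length, 0.517% held at least 4, 1.97% at least 3 and 7.11% at least 2. Counted along the gene with the start as base 1 and the base before it as -1 (first base of each match), the cores of Mt2 began at -223, -128, -50 and 5, those of Mt1 at -23, 3 and 21, and those of Slc30a1 at -43 and 31. The Mt3 window held 1 core, and those of Tmem163 and Mtf1 held none. The palindromic AP-2 motif was searched as GCCNNNGGC and with 4 bases in place of the 3 in its middle, on both strands, and 27.0% of all windows held at least 1 of either. The Mt2 window held 2, and 7.73% of windows held at least 2. Of the 2 Slc39a10 windows 1 held 3, and 2.19% of windows held at least 3. The Slc30a3 windows held 2 and 1, the Slc30a1, Tmem163 and Mtf1 windows 1 each, and the Mt1, Mt3 and other Slc39a10 windows none. Windows were used for 8 of the 9 genes, and Slc39a6 was left out of the search. A match describes the letters of the window and not a bound site.

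Mt2, the metallothionein with the largest KO difference, was lower in KO cortex of both regions and most clearly in caudal cortex. On the log2 scale it read 7.63, 6.54 and 6.57 in caudal KO animals 1, 2 and 13, against 8.64, 8.94 and 8.64 in caudal WT animals 4, 6 and 14. The 3 caudal KO arrays lay below all caudal WT arrays, and animals 2 and 13 lay about 1 log2 unit below KO animal 1. Rostrally it read 7.37, 7.77 and 7.96 in KO animals 7, 8 and 15, against 8.16, 8.74 and 7.90 in WT animals 10, 12 and 16. Rostral groups overlapped, with KO animal 15 just above WT animal 16. The KO minus WT difference was -1.83 ± 0.28 (SE) in caudal cortex, a signal 3.55-fold lower, and -0.57 ± 0.28 in rostral cortex. The 2 highest WT values came from caudal WT animal 6 and rostral WT animal 12, the arrays with high Xist. In the rostral comparison, leaving out WT animal 12 gave -0.33, more than 1.5 times smaller. With Xist as a covariate the differences were -1.66 in caudal and -0.40 in rostral cortex. Without caudal WT animal 6, the array high in choroid plexus markers, the caudal difference was -1.73.

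Mt1, whose protein binds zinc and copper much as Mt2 does, went the same way with smaller differences. It read 7.61, 7.08 and 7.27 in caudal KO animals 1, 2 and 13, against 8.28, 8.38 and 7.88 in caudal WT animals 4, 6 and 14. Caudal KO arrays lay below all caudal WT arrays. In rostral cortex it read 6.78, 6.68 and 6.32 in KO animals 7, 8 and 15, against 7.49, 6.96 and 6.69 in WT animals 10, 12 and 16, so that the groups overlapped by 1 pair of arrays. The differences were -0.86 ± 0.22 in caudal cortex, a signal 1.82-fold lower, and -0.45 ± 0.22 in rostral cortex, where it was -0.23 without WT animal 10, more than 1.5 times smaller. The values are from a probe set with the suffix s, which the array's maker gives to sets that can match more than 1 transcript. The other probe set of Mt1 lay at or below 4.70 on every array, under the median of the table, and was not tested.

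Mt3, the brain metallothionein, lay higher in KO, opposite to Mt1 and Mt2. Mt3 stood at 9.76, 9.84 and 9.94 in caudal KO animals 1, 2 and 13, against 8.68, 9.64 and 9.58 in caudal WT animals 4, 6 and 14. Rostral arrays read 10.13, 10.01 and 9.93 in KO animals 7, 8 and 15, against 9.71, 9.85 and 9.73 in WT animals 10, 12 and 16. KO and WT did not overlap in either region, and 1.18% of all genes likewise lay apart in both regions in the same direction. Caudal WT animal 4 was lowest by far. The differences were 0.54 ± 0.19 in caudal and 0.26 ± 0.19 in rostral cortex. Without caudal WT animal 4 the caudal difference was 0.23, more than 1.5 times smaller.

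Tmem163, a zinc-binding membrane transporter first found on synaptic vesicles, lay lower in caudal KO cortex and higher in rostral KO cortex. It read 6.91, 6.42 and 6.49 in caudal KO animals 1, 2 and 13, against 7.63, 7.74 and 7.22 in caudal WT animals 4, 6 and 14. Rostrally, Tmem163 read 7.33, 7.50 and 7.31 in KO animals 7, 8 and 15, against 7.07, 7.13 and 7.21 in WT animals 10, 12 and 16. The groups did not overlap in either region, and the direction was opposite. The differences were -0.92 ± 0.17 in caudal cortex, a signal 1.90-fold lower, and 0.24 ± 0.17 in rostral cortex.

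**Figure D1:**
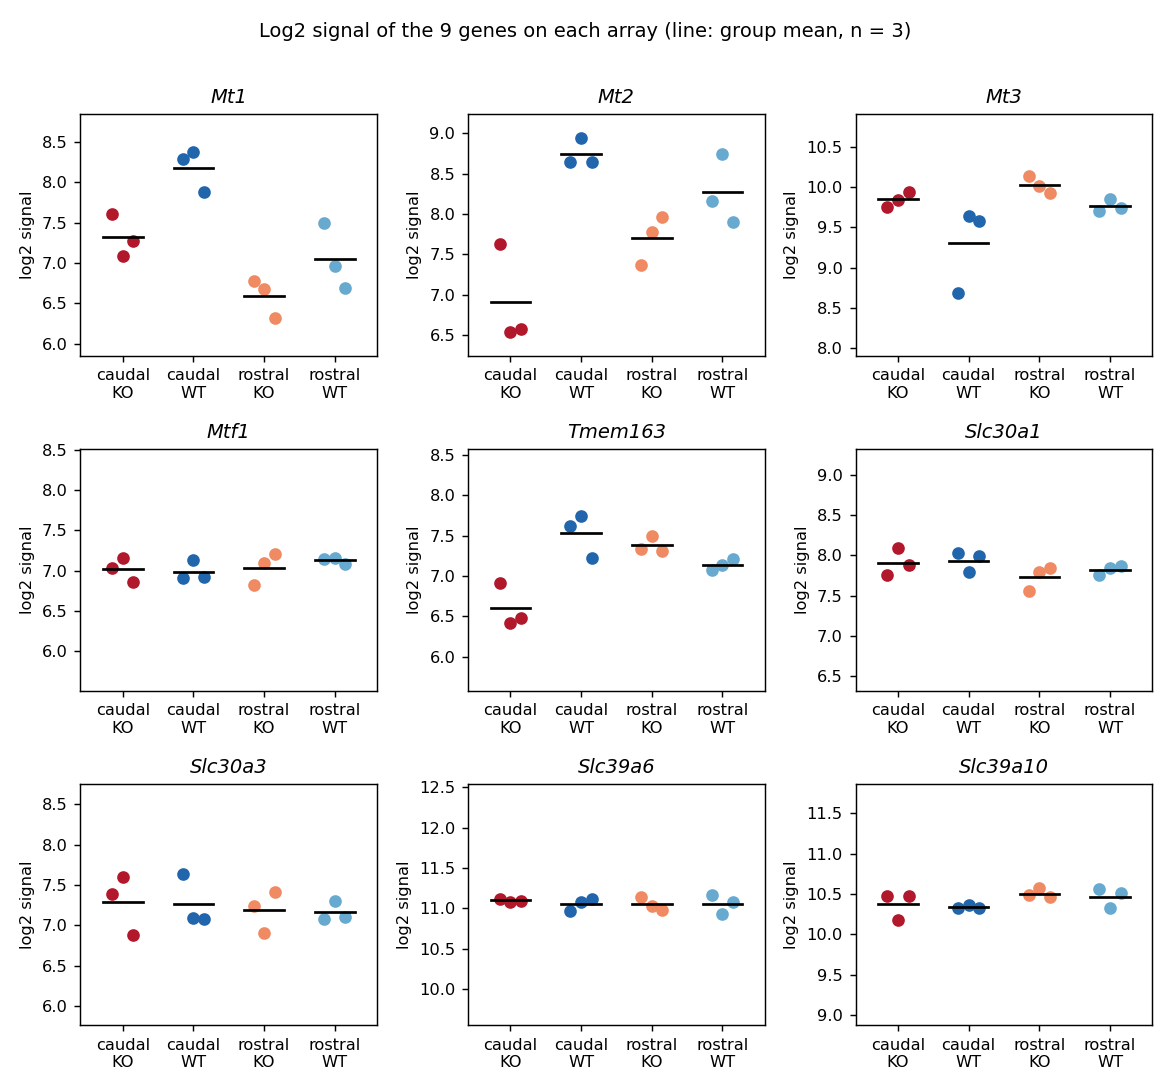
Log2 signal (vertical axes, each spanning at least 3 log2 units) of the 9 genes on each of 12 arrays, by region and genotype; points are arrays and lines are group means (n = 3). Mt1, Mt2 and Tmem163 lie lower in caudal KO than in caudal WT without overlap, Mt3 lies higher, and the other 5 genes overlap in every KO against WT pair.

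The activator and the other transporters stayed within narrow ranges on their representative probe sets. Mtf1 ran from 6.82 to 7.21 over the 12 arrays, with KO differences of 0.03 (95% interval -0.28 to 0.34) in caudal and -0.09 (-0.40 to 0.22) in rostral cortex. Its 2 further tested probe sets gave -0.08 and -0.11 in caudal, and -0.10 and -0.21 in rostral cortex. The remaining 2 of its 5 probe sets were not tested.

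Slc30a1, the exporter that Mtf1 induces together with Mt1 and Mt2, ran from 7.56 to 8.09. It read 7.76, 8.09 and 7.88 in caudal KO animals 1, 2 and 13, against 8.03, 7.79 and 7.99 in caudal WT animals 4, 6 and 14. The groups overlapped, and the difference was -0.03 (-0.30 to 0.24) in caudal and -0.09 (-0.36 to 0.18) in rostral cortex. The lower bound in caudal cortex is far smaller in size than the difference of Mt2. Its second, dimmer probe set gave 0.28 ± 0.24 in caudal cortex, without overlap between the groups (5.63 to 6.02 in KO, against 5.40 to 5.52 in WT), and 0.14 ± 0.24 in rostral cortex. The probe sets of Slc30a1 thus disagreed in sign.

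Slc30a3, the vesicular zinc transporter, ran from 6.88 to 7.64, with KO differences of 0.02 (-0.43 to 0.47) in caudal and 0.03 (-0.43 to 0.48) in rostral cortex. Slc39a6, a plasma membrane importer, ran from 10.94 to 11.16, with differences of 0.05 (-0.12 to 0.21) and -0.01 (-0.17 to 0.16). Slc39a10, the importer most closely related to Slc39a6, ran from 10.17 to 10.57, with differences of 0.03 (-0.17 to 0.23) and 0.04 (-0.17 to 0.24). The intervals of both importers on these probe sets reach no farther from 0 than 0.24. Of the 4 probe sets of Slc39a6, 3 were tested, and the others gave -0.10 and 0.17 in caudal and 0.09 and 0.65 in rostral cortex. The 0.65 (SE 0.40) came from a set with the suffix x, given to sets prone to cross-hybridisation, which exceeded the median on only 4 arrays.

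**Figure D2:**
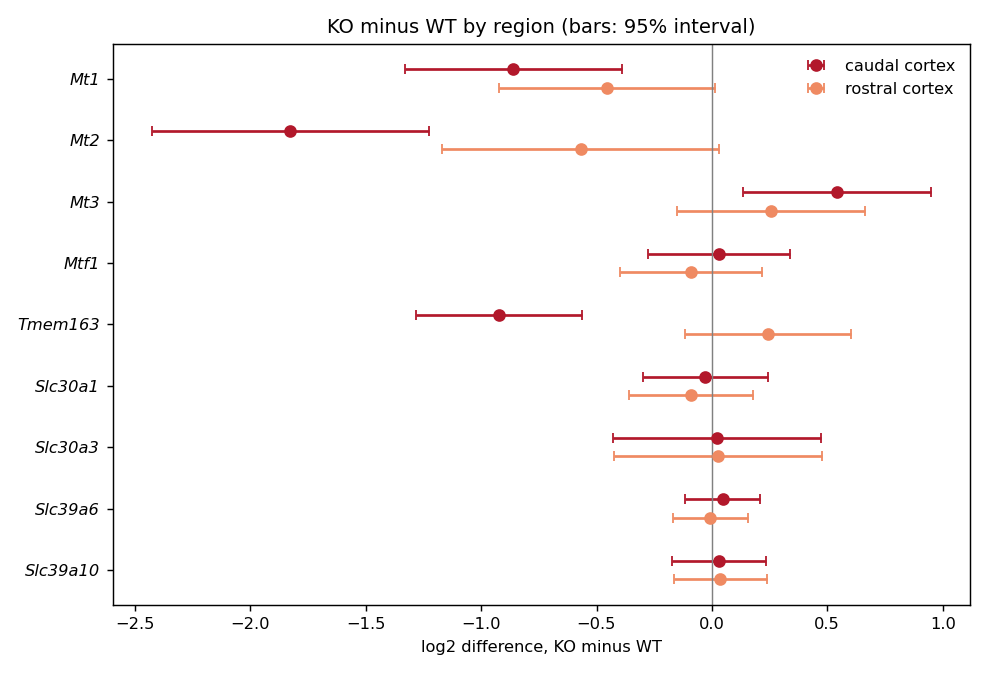
KO minus WT differences (horizontal axis, log2) of the 9 genes in caudal and rostral cortex; points are estimates from limma and bars 95% intervals. Mt2, Tmem163 and Mt1 lie farthest below 0 in caudal cortex at -1.83, -0.92 and -0.86, while Mtf1 and the 4 Slc transporters lie within 0.1 of 0 in both regions.

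By limma with Benjamini-Hochberg adjustment over all genes, 0 of 9 genes passed in caudal cortex, where 0% of 11785 genes did. The same held in rostral cortex, where 0% of all genes passed, and for the difference of the KO effects, where again 0% passed. Averaged over both regions 0 of 9 passed, against 0.0339% of all genes. At an unadjusted p under 0.05 the counts were 4 of 9 in caudal cortex (4.06% of all genes), 0 of 9 in rostral cortex (6.69%), 4 of 9 averaged over both regions (7.53%) and 2 of 9 for the difference (3.04%). KO and WT did not overlap for 4 of 9 genes in caudal cortex, against 7.52% of all genes, and for 2 of 9 in rostral cortex, against 13% of all genes. Nothing is read from these counts, since KO differences chose the genes. The median KO difference averaged over both regions was -0.03 over the 9 genes and -0.01 over all genes.

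Averaged over both regions, the differences were -1.20 ± 0.20 for Mt2, -0.66 ± 0.15 for Mt1, 0.40 ± 0.13 for Mt3 and -0.34 ± 0.12 for Tmem163. The caudal minus rostral difference of the KO effects was -1.26 ± 0.39 for Mt2, -0.41 ± 0.31 for Mt1, 0.29 ± 0.27 for Mt3 and -1.17 ± 0.24 for Tmem163. For Mt2 this difference shrank to -0.82 in animals 1 to 12 alone, more than 1.5 times smaller. For Mt1 it was -0.23 without rostral WT animal 16 and -0.63 without rostral WT animal 10. For Mt3 it was -0.02 without caudal WT animal 4 and 0.46 without caudal WT animal 6. The average for Mt3 over both regions was 0.25 without caudal WT animal 4 and 0.48 without caudal WT animal 6. Mt2 in caudal cortex, chosen with this difference known, did not pass with all arrays (limma adjusted p = 0.084). It passed in 2 of 25 other settings, over which limma's adjusted p ran from 0.0058 to 0.39. These were animals 13 to 16 as an additive block (adjusted p = 0.038) and leaving out caudal KO animal 1 (adjusted p = 0.0058, difference -2.18). Animal 1 was the caudal KO array nearest to WT.

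Caudal and rostral cortex were then compared within each genotype, to ask how the genes differ along the cortex. In WT, Mt1 was higher in caudal than in rostral cortex and was the only one of the 9 genes to pass. The WT values given above had no overlap, with 7.88 to 8.38 in caudal WT and 6.69 to 7.49 in rostral WT. The difference was 1.13 ± 0.22, a signal 2.19-fold higher (limma adjusted p = 0.029). The same WT arrays enter the KO against WT differences that were known when the genes were chosen, so this test is not independent of that choice. Mt1 also passed in 18 of 25 other settings, and limma's adjusted p ran from 0.0053 to 0.11 over all 25. The call was lost without caudal WT animal 4 (adjusted p = 0.084) or 6 (0.084) and without rostral WT animal 12 (0.10) or 16 (0.11), with differences from 0.95 to 1.09. It was also lost without the intensity trend, with only the groups compared and in animals 1 to 12 alone. Choroid plexus markers averaged 3.09 to 7.12 in caudal WT and 3.31 to 4.14 in rostral WT, with Ttr, Kl, Aqp1 and Kcne2 under the filter. Without caudal WT animal 6, the only caudal array where they were high, Mt1 differed by 1.03. Microglial markers averaged 5.47 to 5.50 in caudal WT and 5.62 to 5.87 in rostral WT, and red blood cell markers 6.45 to 6.94 in caudal WT and 7.15 to 7.31 in rostral WT, without overlap. All 5 tested microglial and all 3 tested red blood cell markers were lower in caudal WT, 0 of them past the threshold. The part of these cells in the difference of Mt1 was not tested.

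The count of 1 of 9 genes compared with 0.942% of all genes that passed in WT. Caudal and rostral WT did not overlap for 3 of 9 genes, Mt1, Tmem163 (0.39 ± 0.17, adjusted p = 0.43) and Mt3 (-0.46 ± 0.19, adjusted p = 0.40), against 13.9% of all genes. Without caudal WT animal 4, Mt3 differed by -0.15. Mt2 differed by 0.47 ± 0.28 (adjusted p = 0.65) with overlap, by 0.29 without rostral WT animal 16 and by 0.71 without rostral WT animal 12. For the 5 other genes the differences on the representative probe sets ran from -0.14 to 0.11, none of which passed. A further probe set of Slc39a6 was higher in caudal WT by 0.37 ± 0.16 without overlap (7.47 to 7.80, against 7.11 to 7.42 in rostral WT). It did not pass (limma adjusted p = 0.51 over all tested probe sets). The Slc39a6 set with the suffix x gave 0.47 ± 0.40 with overlap. Further tested sets of Mtf1, Slc30a1 and Slc39a10 ran from -0.21 to 0.17 with overlap.

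In KO, Mt1 was again higher in caudal cortex (7.08 to 7.61, against 6.32 to 6.78 in rostral KO), by 0.73 ± 0.22, which did not pass (limma adjusted p = 0.15, range 0.039 to 0.38). Tmem163 was lower, at 6.42 to 6.91 in caudal KO against 7.31 to 7.50 in rostral KO, by -0.77 ± 0.17. Choroid plexus markers went the same way without overlap, at 2.998 to 4.14 in caudal KO and 4.33 to 4.70 in rostral KO. These means all lay under the filter's 5.21, and Ttr, Kl, Aqp1 and Kcne2 were not tested. Of the tested ones 4 of 4 were lower in caudal KO (median -0.84, smallest limma adjusted p = 0.060). Of the tested meningeal markers 4 of 4 (median -0.93) and of the microglial markers 5 of 5 (median -0.38) were also lower in caudal KO. Only rostral KO animal 15 had a meningeal mean (6.81) above the caudal KO range of 3.94 to 4.52. Rostral KO animals 7 and 8 read 4.24 and 3.62. The part of these markers in the difference of Tmem163 was not tested. Tmem163 passed with the 12 arrays (adjusted p = 0.049) but only in 7 of 24 alternatives (range 0.0049 to 0.21), and it shares its arrays with the KO effects that chose the gene. Its adjusted p was 0.16 without caudal KO animal 2, 0.13 without 13, and 0.085, 0.21 and 0.12 without rostral KO animals 7, 8 and 15. It was 0.052 without caudal WT animal 4, and 0.069, 0.070 and 0.065 without rostral WT animals 10, 12 and 16. Mt2 differed by -0.79 ± 0.28 (adjusted p = 0.23), opposite in sign to WT. The count of 1 of 9 genes compared with 0.95% of all genes. Caudal and rostral KO did not overlap for 2 of 9 genes, Mt1 and Tmem163, against 20.9% of all genes.

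**Figure D3:**
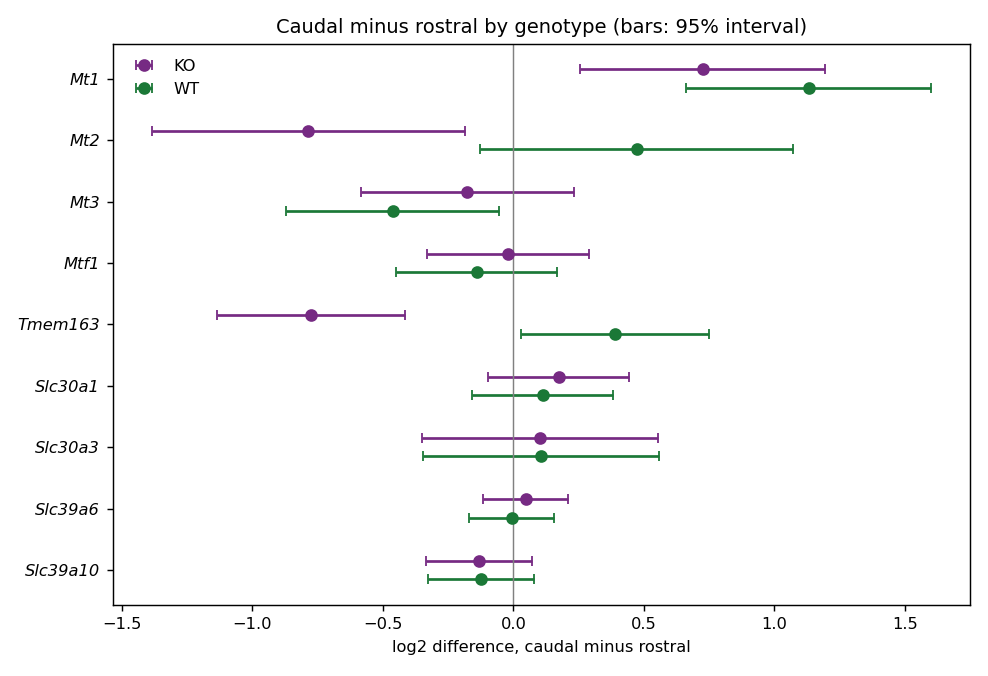
Caudal minus rostral differences (horizontal axis, log2) of the 9 genes within KO and within WT cortex; points are estimates from limma and bars 95% intervals. Mt1 lies above 0 in both genotypes (0.73 in KO and 1.13 in WT), while Mt2 and Tmem163 lie below 0 in KO (-0.79 and -0.77) and above 0 in WT (0.47 and 0.39).

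The order of the group means differed between the metallothioneins. For Mt1 it was caudal WT (8.18 ± 0.27 SD), caudal KO (7.32 ± 0.27), rostral WT (7.05 ± 0.41) and rostral KO (6.59 ± 0.24), where caudal KO overlapped rostral WT and rostral WT overlapped rostral KO. For Mt2 it was caudal WT (8.74 ± 0.18), rostral WT (8.27 ± 0.43), rostral KO (7.70 ± 0.30) and caudal KO (6.91 ± 0.62), where each pair of neighbours overlapped. For Mt3 it was rostral KO (10.02 ± 0.10), caudal KO (9.84 ± 0.09), rostral WT (9.76 ± 0.08) and caudal WT (9.30 ± 0.54), with overlap between rostral KO and caudal KO and between caudal KO and rostral WT. For Tmem163 it was caudal WT (7.53 ± 0.27), rostral KO (7.38 ± 0.10), rostral WT (7.14 ± 0.07) and caudal KO (6.61 ± 0.27), and caudal WT overlapped rostral KO.

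Across the 12 arrays, Mt2 was compared with each of the 8 other genes. Its values went with those of Tmem163 (r = 0.79, permutation p = 0.0028, adjusted p = 0.022 over 8 relations; Spearman's rho = 0.55, permutation p = 0.067, adjusted p = 0.27). Both genes were chosen on KO against WT differences, and the relation rests on those arrays: without caudal KO animals 2 and 13, r was 0.40. All permutations here moved values freely across the 4 groups, so their p-values also reflect differences between the groups. After the group means were removed r was 0.57, a value that was not tested. Mt1 and Mt2, neighbours in the metallothionein cluster on chromosome 8, were more loosely related (r = 0.45, permutation p = 0.14, adjusted p = 0.38; rho = 0.41, permutation p = 0.19, adjusted p = 0.39), with r = 0.64 without the same 2 arrays and 0.28 after the group means were removed. With the other 6 genes the smallest adjusted p was 0.38 for r and 0.27 for rho, both for Mt3 (r = -0.48, rho = -0.61). Without the same 2 arrays, r moved to 0.65 for Slc30a1, against -0.02 over all 12, and to -0.77 for Slc39a10, against -0.03 over all 12.

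The genes most like each member were those of highest Pearson correlation over the 12 arrays among all genes tested. For Mt2 they were Actl7b (r = 0.90), Serpinb6a (0.90), 2510039O18Rik (0.87), Tor1aip2 (0.87) and Arr3 (0.86). For Mt1 they were Txndc15 (0.94), Mkrn2 (0.89), Slc2a13 (0.88), Psmd7 (0.87) and Gm2a (0.87). For Mt3 they were Pde1c (0.94), Btbd11 (0.92), A330102I10Rik (0.92), Scn1a (0.92) and Tmem108 (0.90). For Tmem163 they were Actl7b (0.90), Mrpl57 (0.86), Lgals7 (0.86), Bmf (0.85) and Casc3 (0.84). After the group means were removed, r stayed at 0.84 to 0.93 for the 5 genes like Mt3 but ran from 0.20 to 0.80 for those like Mt1. These values describe the 12 arrays, which share the groups, and say nothing of shared function.

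Other genes of zinc and copper handling showed no KO difference that passed. Of 8 further zinc exporters 6 were tested, with 0 higher and 0 lower past the threshold and a median of 0.04 averaged over both regions. The exporters of smallest p were Slc30a10 (0.14, adjusted p = 0.82), which carries manganese out of the cell, Slc30a5 (0.07) and Slc30a9 (-0.06). Of 12 further importers 9 were tested, none passed, and the median was -0.01. Slc39a7, which releases zinc from the endoplasmic reticulum, had the smallest p (-0.17, adjusted p = 0.58). The copper list of 9 genes had a median of -0.01 and none passed, with the superoxide dismutase gene Sod1 at -0.13 and the copper chaperone gene Atox1 at -0.08.

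Further targets of Mtf1 were read beside Mt1 and Mt2. Of 7 listed genes 6 were tested, none passed, and all 6 had positive KO differences averaged over both regions, with a median of 0.02. The smallest adjusted p by limma was 0.92. By region, 5 were higher and 1 lower in caudal KO, and 3 were higher and 3 lower in rostral KO. Among them Gclc, which starts glutathione synthesis, stood at 0.08 and the growth factor gene Pgf at 0.17. The neighbouring metallothionein gene Mt4 was too dim to be tested. Genes answering to other stimuli that raise Mt1 and Mt2 gave the same count of 0 past the threshold. The glucocorticoid list had 9 tested genes with a median of -0.01, led by Zbtb16 (0.27, adjusted p = 0.84), and the stress hormone target Tsc22d3 stood at -0.02. The oxidative stress list had 6 tested genes with a median of -0.09, led by the glutathione synthesis gene Gclm (-0.28, adjusted p = 0.42). The hypoxia list had 10 tested genes with a median of 0.00, led by the lactate dehydrogenase gene Ldha (-0.33, adjusted p = 0.24). Over the 7 lists together, 0 of 55 tested genes passed by limma, and 4 (Ldha, Aldoa, Gclm and Slc39a7) had an unadjusted p under 0.05. The median over all 11785 genes was -0.01. In this comparison 0.0339% of them passed and 7.53% had an unadjusted p under 0.05.

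**Figure D4:**
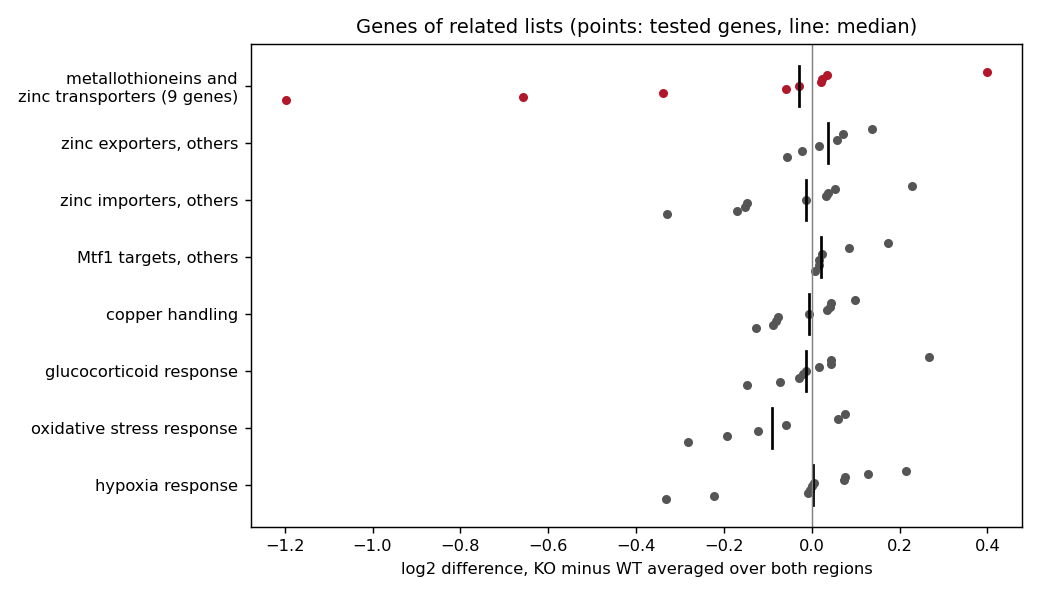
KO minus WT differences averaged over both regions (horizontal axis, log2) for the 9 genes and for 7 lists of related genes; points are tested genes and black lines list medians. Mt2 at -1.20 and Mt1 at -0.66 lie farther from 0 than every gene of the 7 lists, whose medians run from -0.09 to 0.04. The 9 genes were chosen from KO differences of these data, so nothing is read from this contrast.

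Between regions, 0 of the 55 genes of these 7 lists passed by limma in WT or in KO, against 0.942% and 0.95% of all genes. An unadjusted p under 0.05 was found for 5 in WT, against 10.4% of all genes, and for 9 in KO, against 13.2%. In WT the genes of smallest p included the importer gene Slc39a3 (-0.29, adjusted p = 0.46), the thioredoxin reductase gene Txnrd1 (-0.32, adjusted p = 0.13) Srxn1 of the oxidative stress list (-0.69, adjusted p = 0.38) and Ankrd37 of the hypoxia list (-0.56, adjusted p = 0.25). In KO, Ndrg1 of the Mtf1 targets stood at 1.18 and Atox1 at 0.32 (adjusted p = 0.12 for both).

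Markers of other cell types were read beside these results as means over each list. Vascular markers averaged 6.43 to 6.54 in caudal KO and 6.14 to 6.72 in caudal WT, and 6.35 to 7.03 in rostral KO and 6.34 to 6.41 in rostral WT. Meningeal markers averaged 3.94 to 4.52 in caudal KO and 3.91 to 4.58 in caudal WT, and 3.62 to 6.81 in rostral KO and 3.67 to 4.28 in rostral WT, with Col1a1, Lum, Foxd1 and Aldh1a2 under the filter. Choroid plexus markers averaged 2.998 to 4.14 in caudal KO and 3.09 to 7.12 in caudal WT, and 4.33 to 4.70 in rostral KO and 3.31 to 4.14 in rostral WT, where the groups did not overlap. The vascular and meningeal ranges of caudal KO lay within those of caudal WT. In rostral cortex 3 of 4 tested choroid plexus and 4 of 4 tested meningeal markers were higher in KO, 0 of them past the threshold by limma. Of the rostral KO arrays, only animal 15 had a meningeal mean above the rostral WT range. The part of these tissues in the KO against WT values was not tested beyond leaving out single arrays.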

How the data were processed

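Total RNA (400 ng) was amplified and biotin-labelled for 1-colour arrays, per the labels' protocols. The authors deposited log2 values of 45101 probe sets on every array, a unit inferred from the range of the table. Quartiles were nearly equal across arrays as deposited. The authors' background correction, normalisation and summarisation are not given in the sources used here. No detection calls were used, and precision is limited by 3 arrays per group.

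Probe sets were named with the platform annotation: 34958 named 1 gene, 932 several and 9211 none here. Genes were compared with limma 3.58.1 in R 4.3.3, with 1 mean per group over 12 arrays, a trend of variance on mean level (degrees of freedom 8 residual plus 5.37 prior), two-sided tests and Benjamini-Hochberg adjustment at 0.05 over 11785 genes. The fit was tested on artificial data. Correlations used 1e+05 permutations. Members, lists and tests were chosen with earlier results of these data known. All 9 members are named. Of each related list, members past the threshold or those of smallest p could be named, and for 4 members the 5 most correlated genes. The labels give each of the 12 arrays its own animal number, so by these numbers caudal and rostral pieces came from different animals. If a number stood for a piece and not for an embryo, the comparisons between regions would not be between independent animals.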

Additional observations from a re-analysis of the deposited data

Results flagged for a closer look

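Tmem163 was the only one of the 9 genes whose KO and WT arrays lay apart in both regions in opposite directions, lower in caudal KO and higher in rostral KO. Of all genes, 7.52% lay apart in caudal and 13% in rostral cortex. The share that did so in both regions in opposite directions was not counted. The caudal minus rostral difference of the KO effects of Tmem163 was -1.17 on the log2 scale. By limma's test of that difference it did not pass over 11785 genes (adjusted p = 0.99, range 0.19 to 1.00 over 23 alternatives). Leaving out 1 array at a time kept it between -1.32 and -1.06. The gene was chosen with this difference known. In group means, choroid plexus markers moved the same way. Of 4 tested, 4 were lower in caudal KO (median -1.22) and 3 higher in rostral KO (median 0.55). The difference of their KO effects had a median of -1.86. Over the 8 listed, only caudal WT animal 6 (7.12) lay above the caudal KO range of 2.998 to 4.14. Caudal WT animals 4 and 14 read 3.36 and 3.09. The 4 tested meningeal markers had a median difference of -1.27, all in the same direction. Among rostral KO arrays, the meningeal mean was 6.81 on animal 15, against 4.24 and 3.62 on animals 7 and 8. The part of these markers in the difference of Tmem163 was not tested. Without caudal WT animal 6, which was high in choroid plexus markers, it was -1.06, and without rostral KO animal 15, which was high in meningeal markers, it was -1.20.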

How the results depend on the processing

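Results were recomputed under 24 other settings, 12 of which left out 1 array each, and in animals 1 to 12 alone, which was added after seeing the data. The other settings were quantile normalisation, low values raised to the table median, no filter, a stricter filter, the mean of a gene's tested probe sets, every tested probe set, a block for animals 13 to 16, array weights, an Xist covariate, a fit to only the groups compared, and moderation that was robust or had no trend. Between KO and WT, the count of 0 of 9 genes past the threshold became 1 (Mt2) in caudal cortex with the block, and 1 (Mt2) averaged over both regions with the block or with array weights. Leaving out 1 array gave 0 to 1 in both comparisons and 0 to 0 in rostral cortex and for the difference of the KO effects. In WT, the count of 1 between regions became 0 without the intensity trend, with only the groups compared, or in animals 1 to 12, and was 0 to 1 with 1 array left out. In KO, the count of 1 became 0 with low values raised, no filter, the stricter filter (which drops Tmem163), no trend, robust moderation, only the groups compared, the Xist covariate, every tested probe set, or animals 1 to 12. It became 2 (Mt1 and Tmem163) with the block, and 0 to 1 with 1 array left out. Of 1314 values of single genes, 79 changed sign, 66 in comparisons of KO with WT and 13 between regions, and 0 of these were past the threshold. None was of Mt1, Mt2 or Tmem163, 1 was of Mt3, and the others were of Mtf1 and the 4 Slc genes. Between regions, Slc39a6 in WT stood at 0.28 with the mean of probe sets and at -0.068 to 0.045 with 1 array left out. Mtf1 in KO stood at 0.031 with the mean of probe sets, 0.064 with array weights, 0.14 in animals 1 to 12 and -0.13 to 0.063 with 1 array left out. Slc30a3 stood at -0.080 to 0.20 in WT and -0.055 to 0.31 in KO with 1 array left out. No paired analysis was possible because no animal number occurs in 2 groups.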
